A study of Mus musculus with 23 samples.

Results

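CD8 T cells of the lymph node (LN) in which no Ccl5 transcript was seen were described in mice carrying the Y665F change in STAT5B. A droplet barcode was taken as such a cell when it held at least 200 genes and at most 10% mitochondrial unique molecular identifiers (UMIs), at least 1 UMI of Cd8a or Cd8b1, and none of Cd4, Cd79a, Trdc and Ccl5. The cells were thus chosen by their measured counts of these genes. The rule left 8819 cells of 41204 LN barcodes that passed the filters, and of 139967 barcodes in the 16 expression libraries of the series. The LN libraries came from 2-month-old mice labelled C57BL/6, WT (n = 2), heterozygous for Y665F (het, n = 3) and homozygous for Y665F (homo, n = 2). Spleen libraries of WT, Y665F and Y665H mice (n = 1 each) with the same age and strain labels were used for comparison, where Y665H puts histidine in place of the same tyrosine. Zygosity was read from the sample titles. The methods of the study describe the mice as male and Y665F as introduced by CRISPR/Cas9 (Y665H by base editing) into C57BL/6N zygotes and passed on through the germline, so every cell of a het or homo mouse carried it. A silent change was made with it. Nothing in the labels says whether the libraries came from separate litters or days, so the p-values measure the spread between these libraries.

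JAK kinases bound to cytokine receptors phosphorylate STAT5B, which then enters the nucleus and binds DNA. In T cells it serves the cytokines whose receptors share the common gamma chain, and drives genes of survival, growth and cytokine feedback. CD8 T cells leave the thymus as naive cells that recirculate through lymph nodes, and after antigen or cytokine stimulation become effector and memory cells. Ccl5 encodes a chemokine that memory and effector CD8 T cells store as RNA, so cells without it are enriched for naive cells. The rule does not define a naive cell, since a cell that expresses Ccl5 can also have yielded no UMI of it.

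The edited codon and the reagents that changed it are shown because they define the genotypes. Stat5b is read from the minus strand, and the codon changed by Y665F falls, in transcript Stat5b-201, in exon 16 of 19 (GRCm38, chromosome 11, 100787291 to 100787293). In the first pair of lines the codon is in capitals, and in the third the capitals mark the PAM of the guide, which targets the opposite strand. Each sequence is written 5′ to 3′.
Stat5b reference: ggggacctgaatTACctcatatatgtg
Y665F donor: ggggacctgaatTTTctcatatatgtg
guide with PAM: tgaggtaattcaggtcccccAGG

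The level of the edited gene was reported first. Stat5b stood at 84.1 and 83.6 CPM (WT), 71.4, 68.7 and 86.9 CPM (het), and 88.0 and 73.0 CPM (homo) (CPM, the share of all UMIs of the Ccl5-negative CD8 T cells of a library, scaled as counts per 1e6). The ranges of the genotypes overlapped, and homo differed from WT by a log2 change of −0.074 (SE 0.165, edgeR adjusted p 0.929). Stat5a, the neighbouring gene with a closely related protein, stood at 27.8 and 39.4 CPM (WT), 38.5, 29.7 and 43.5 CPM (het), and 38.2 and 34.0 CPM (homo), a log2 change of 0.034 (SE 0.242, edgeR adjusted p 0.988). Neither change passed the test, and both turned sign under some settings given in the closing section. A matrix of gene counts does not read the edited base.

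Depth differed between libraries, as did the values near the thresholds of the rule. A Ccl5-negative CD8 T cell held a median of 1179 and 1414 UMIs (WT), of 3635, 1945.5 and 466 UMIs (het, replicates 1 to 3), and of 480.5 and 1154.5 UMIs (homo, replicates 1 to 2). Both homo libraries lay below both WT libraries, so depth went with genotype in that comparison. Het replicate 3 and homo replicate 1 stood apart as shallow. Exactly 1 Cd8a or Cd8b1 UMI supported 59.7% and 58.8% of their cells, against 6.66% to 30.5% in the other 5 libraries. Just outside the Ccl5 threshold, cells with 1 Ccl5 UMI made up 2.59% and 2.28% of the CD8 gate (WT), 4.32%, 4.94% and 9.79% (het), and 11.8% and 6.32% (homo). Counts summed per library ran from 483076 to 4622589 UMIs. Pairs of LN libraries shared between 26 and 91 barcodes, at most 1.56% of the smaller library.

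The label was checked against markers the rule did not use. All 9 T-cell genes of the marker list were tested, and their summed level ran from 4311 to 4759 CPM. A productive T-cell receptor beta (TRB) contig was found in 89.3% to 97.1% of the cells by library, and in 1.33% to 9.86% of the B cells of the same libraries. Cd8a and Cd8b1, which the rule used, stood at 767 and 672 CPM (WT), 668, 682 and 1085 CPM (het), and 1096 and 728 CPM (homo) and at 1317 and 1248 CPM (WT), 1200.2, 1313 and 2089 CPM (het), and 2082 and 1385 CPM (homo), highest in the shallow libraries. The 5 CD4 T-cell markers other than Cd4 summed to 79.9 and 85.9 CPM (WT), 59.3, 55.3 and 74.5 CPM (het), and 36.3 and 53.5 CPM (homo). Of the 3 tested, Trat1 differed by −1.47 (edgeR adjusted p 0.0595), Foxp3 by −1.02 and Izumo1r by −0.57, and none passed the test. What RNA of CD4 T cells adds to the lower genes was not tested. The 8 B-cell markers other than Cd79a summed to 431 and 202 CPM (WT), 66.2, 349 and 524 CPM (het), and 193 and 239 CPM (homo), with no order by genotype. Of the 5 natural killer markers, 2 were tested and both were lower in homo than in WT, without passing the test. Their list summed to 49.3 and 10.4 CPM (WT), 6.27, 8.80 and 45.5 CPM (het), and 7.65 and 5.09 CPM (homo). The 7 myeloid markers summed to 92.4 to 166 CPM, with S100a8, S100a9 and C1qa at 0 in all libraries, the 4 plasma cell markers to 1.70 to 12.4 CPM, and the 3 red cell markers were at 0.

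Of the cells in the CD8 gate, no Ccl5 UMI was held by 92.5% and 93.0% (WT), by 64.1%, 73.0% and 71.2% (het), and by 61.1% and 52.9% (homo). All 5 Y665F libraries lay below both WT libraries, and homo replicate 1 and 2 lay below all het libraries. Cells were also thinned to 300 UMIs before the gate was applied. Barcodes with fewer UMIs were left out. These were 18.5% of the barcodes that passed in het replicate 3, 15.4% in homo replicate 1 and none in the other LN libraries. In thinned cells the shares were 97.7% and 97.7%, then 84.0%, 87.6% and 80.2%, then 68.9% and 69.7%. This share is a description of what the rule selected and was not tested. Among B cells of the LN, a type that should lack Ccl5, 0.191% to 1.22% held a Ccl5 UMI, highest in the shallow libraries.

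**Figure D1:**
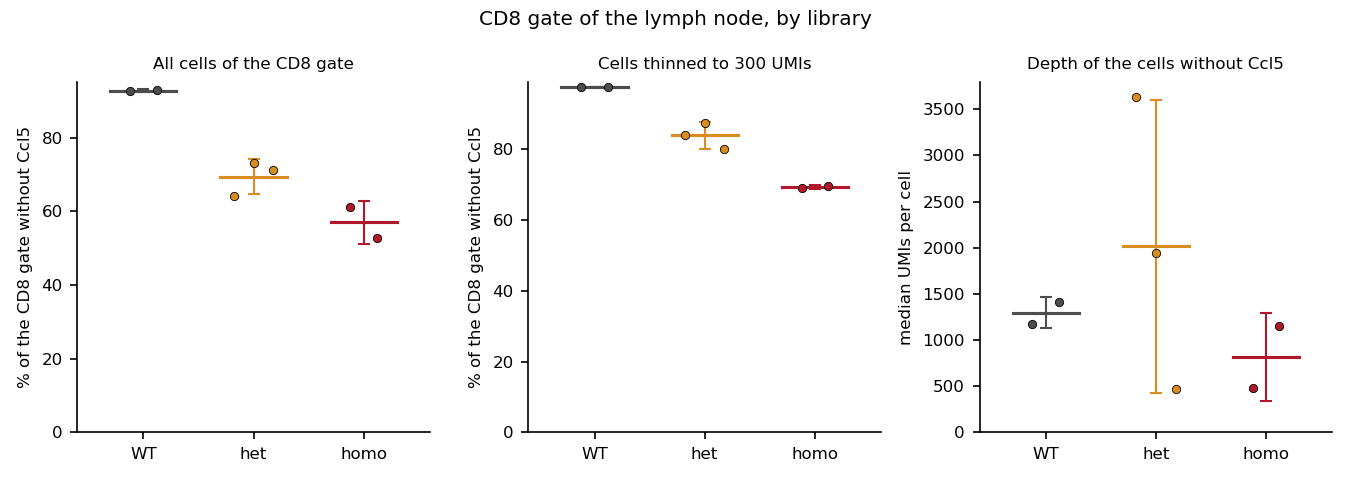
Share of the CD8 gate without Ccl5 in all cells and after thinning to 300 UMIs (%, left and middle), and the median UMIs per Ccl5-negative CD8 T cell (right), by genotype. Points are libraries, lines are group means and bars are 1 SD. WT libraries lie at 92.5% and 93.0% and homo libraries at 61.1% and 52.9%. Depth ranges from 466 to 3635 UMIs, with both homo libraries below both WT libraries and het libraries on either side.

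Homo cells were compared with WT cells to ask which genes changed with 2 edited alleles in CD8 T cells with no Ccl5 UMI. These can include cells that express Ccl5, and their part can differ by genotype. Of the CD8 gate, 92 and 174 cells held Ccl5 in WT and 649 and 827 in homo. Both homo libraries were also shallower than both WT libraries. What such cells add to the changes was not tested. Of 8814 genes tested, 13 were called at an adjusted p under 0.05 and an absolute log2 change over 1, which is 0.147% of the genes. Of these, 9 were higher (0.102%) and 4 were lower (0.0454%), and 817 genes had an unadjusted p under 0.05. The filter on low counts asked for 6.95 CPM in at least 2 libraries. Of the 9 higher genes, 5 (Osbpl3, Cd163l1, Drc1, 5830411N06Rik and Pdlim4) reached it in no WT library, so they entered the test only through Y665F libraries, and their part in the count of 9 is no support for a direction. Osbpl3 and Cd163l1 reached it only in the shallow het replicate 3 and homo replicate 1. The higher genes included Pdlim4, Plac8, Ddc, Ube2c, Drc1 and the scavenger receptor genes Cd163l1 and 5830411N06Rik, and the lower genes were Tmie, Snx9, Plekho1 and Rasa2. A further 9 genes passed the adjusted p at a smaller change, among them Ly6c2, Lgals1 and Ahnak (higher) and Ccr9 (lower). DESeq2 called 4 genes (Drc1, Osbpl3, Ddc and Pdlim4), all among the 13. Of the 17 to 20 other settings that tested each gene, 11 of the 13 lost their call in 5 to 10, Plac8 lost it in 2 of 20 and Pdlim4 in none of 19. Without the shallow libraries 4 genes were called, of which Plac8 and Pdlim4 were among the 13.

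**Figure D2:**
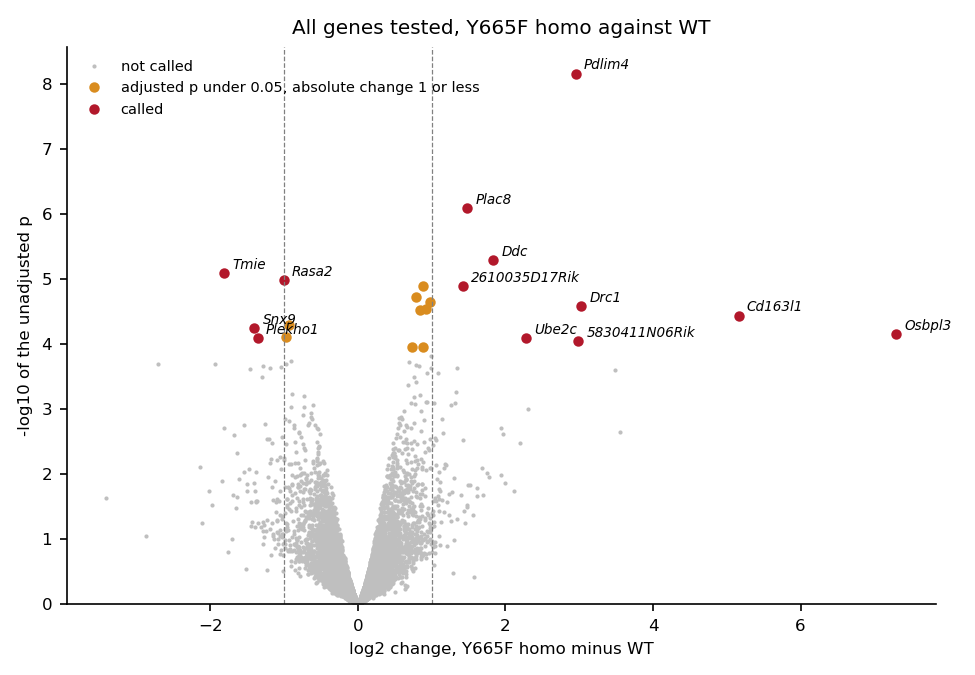
Log2 change of homo minus WT (x axis) against −log10 of the unadjusted p (y axis) for the 8814 genes tested. The 13 called genes are in red and named, and the 9 genes that passed the adjusted p alone are in orange. Pdlim4 has the smallest p, and the x position of Osbpl3, which had no UMI in WT, depends on the prior count of the fit.

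Pdlim4 (chromosome 11, 54054928 to 54069014, minus strand), which encodes a PDZ and LIM domain protein of the actin cytoskeleton, stood at 3.47 and 5.07 CPM (WT), 9.95, 10.1 and 12.4 CPM (het), and 30.6 and 37.4 CPM (homo). The libraries of the 3 genotypes did not overlap. Homo exceeded WT by a log2 change of 2.95 (SE 0.332, edgeR adjusted p 6.16e-05), and exceeded het by 1.76 (SE 0.271, edgeR adjusted p 0.0113). Pdlim4 reached the filter on low counts in no WT library and entered the test only through Y665F libraries. Its call is thus no support for a direction. It was the 1 gene of 8814 called between homo and het (0.0113%). That call ended by DESeq2, with at least 500 genes per barcode, with the depth covariate, without the memory transcripts, without both shallow libraries, and when replicate 1 or 2 of het or replicate 2 of homo was left out, where no gene was called between homo and het. The change against WT was 3.06 without the shallow libraries (adjusted p 0.00136) and 2.85 in cells that also lacked 8 memory and effector transcripts (adjusted p 0.00126). The 8 transcripts were those of Nkg7, Cxcr3, Ly6c2, Il2rb, Eomes, Klrd1, Gzmb and Ccl4. No UMI of them was held by 28.5% and 23.4% of the WT cells and by 37.9% and 27.2% of the homo cells. In het the shares were 8.11%, 15.3% and 45.7%. These shares were highest in the shallow libraries, so the cells are not read as a stricter naive set. The share of cells with a Pdlim4 UMI was low in every library (0.438% to 3.88%). In conventional CD4 T cells of the same libraries Pdlim4 was also higher in homo, by 1.37 (SE 0.219, edgeR adjusted p 0.00106). Other named genes were higher there too, among them Dapl1 (1.64, edgeR adjusted p 8.24e-06), Pim1 (1.39, 7.41e-04), Lgals1 (1.21, 0.00780) and Cmtm7 (1.23, 0.0107). Plac8 (−0.61, edgeR adjusted p 0.919) and Ly6c2 (−1.47, 0.721) lay lower in homo there and did not pass.

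Plac8 (chromosome 5, 100553725 to 100572245, minus strand) encodes a small cysteine-rich protein found in lymphoid and myeloid cells. Its level was 129.9 and 93.8 CPM (WT), 184, 199 and 342 CPM (het), and 356 and 262 CPM (homo). Every Y665F library lay above both WT libraries, and het and homo overlapped. The log2 change of 1.48 (SE 0.221, edgeR adjusted p 0.00357) changed to 1.31 without the shallow libraries (adjusted p 0.00783), 2.41 in cells without the 8 memory and effector transcripts (adjusted p 3.61e-04) and 1.49 in thinned cells (adjusted p 0.00692). It was lost without WT replicate 2 (1.19, adjusted p 0.0678) and by DESeq2. In thinned cells, a Plac8 UMI was held by 3.32% and 3.05% (WT), 4.72%, 5.30% and 10.0% (het), and 9.68% and 6.54% (homo). B cells of the same libraries gave 5.05% and 3.70% (WT), 4.29%, 5.92% and 10.8% (het), and 11.2% and 6.56% (homo). The shares of CD8 T cells were below those of B cells in 6 of 7 libraries (het replicate 1 was the exception), so they are not read as a difference in expressing cells, and the part of RNA from other cells was not tested.

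Cd163l1 and 5830411N06Rik (also named Scart2) encode scavenger receptors of the SCART family, which is best known from gamma-delta T cells, and lie next to each other on chromosome 7 (140218267 to 140231145 and 140247284 to 140300736, both on the plus strand). Cd163l1 was counted at 1 UMI in each WT library, 10, 6 and 6 UMIs (het) and 18 and 8 UMIs (homo), or 0.695 and 0.282 CPM (WT), 2.16, 2.51 and 12.4 CPM (het), and 34.4 and 6.79 CPM (homo). All Y665F libraries lay above WT, and homo replicate 1 and het replicate 3, both shallow, were the highest. Summed over libraries the homo level was 38.1 times that of WT, with an exact 95% counting interval of 9.55 to 332. The 26 homo UMIs lay in 12 and 7 cells, so the interval is too narrow. The log2 change of Cd163l1, 5.16 in the main fit, was 6.20 without homo replicate 2 and 3.94 without homo replicate 1. 5830411N06Rik stood at 2.08 and 1.69 CPM (WT), 5.62, 6.70 and 16.6 CPM (het), and 22.9 and 10.2 CPM (homo), a log2 change of 2.99 (SE 0.630, edgeR adjusted p 0.0398). Without the shallow libraries the log2 change of Cd163l1 went from 5.16 to 3.97 (edgeR adjusted p 0.346) and that of 5830411N06Rik was 2.51 (edgeR adjusted p 0.295).

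Cd163l1 is itself on the list of gamma-delta T-cell markers. The 8 markers of that list other than Trdc, which the rule set to 0, summed to 0.695 and 1.13 CPM (WT), 5.41, 5.45 and 12.4 CPM (het), and 45.9 and 16.1 CPM (homo), and only Cd163l1 passed the filter on low counts. In homo the list held 3 and 9 UMIs of Tcrg-C1, against 0 and 1 in WT, and Il23r was at 0 in all 7 libraries. In cells with a TRB contig, a chain of the alpha-beta receptor, Cd163l1 was again among the called genes, under the same limit of the filter, and 5830411N06Rik differed by 2.99 (edgeR adjusted p 0.0465). In cells with exactly 1 TRB contig 5830411N06Rik differed by 2.78 and was not called (edgeR adjusted p 0.0808), nor was it with the depth covariate (edgeR adjusted p 0.0674). Over all settings that tested them, the call of 5830411N06Rik was lost in 9 of 18 and that of Cd163l1 in 5 of 17.

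The other higher genes were expressed at low levels. Osbpl3, which encodes a lipid-transfer protein related to the oxysterol-binding protein, had 0 UMIs in both WT libraries, 8, 6 and 5 UMIs in het and 8 in each homo library. Over the group the homo level was at least 15.6-fold higher than the 0.601 CPM that 3 UMIs would give in WT. Its call was lost in 6 of 17 settings, namely with at least 500 genes per barcode, without both shallow libraries, and when replicate 2 of WT, replicate 2 of het or either homo library was left out (adjusted p from 0.0553 to 0.364). Drc1, a subunit of the dynein regulatory complex of motile cilia, stood at 2.78 and 1.97 CPM (WT), 7.57, 15.1 and 10.4 CPM (het), and 30.6 and 11.9 CPM (homo), with no overlap between WT and the Y665F libraries. Its log2 change of 3.03 (SE 0.578, edgeR adjusted p 0.0223) was 2.44 without the shallow libraries (adjusted p 0.331), and the call was also lost without WT replicate 2 or homo replicate 1, with at least 500 genes per barcode and with exactly 1 TRB contig. Without homo replicate 2 the log2 change of Drc1 was 3.73. Ddc, which encodes the decarboxylase that makes dopamine and serotonin, stood at 7.64 and 9.58 CPM (WT), 17.1, 24.7 and 20.7 CPM (het), and 38.2 and 28.0 CPM (homo), with the 3 genotypes apart, a log2 change of 1.83 (SE 0.310, edgeR adjusted p 0.0153). That call was lost without WT replicate 2, homo replicate 1 or homo replicate 2, without both shallow libraries, with at least 500 genes per barcode and without the memory transcripts (adjusted p from 0.0666 to 0.787). The long noncoding RNA 2610035D17Rik stood at 11.1 and 18.02 CPM (WT), 29.2, 30.2 and 22.8 CPM (het), and 44.0 and 39.9 CPM (homo), again with the genotypes apart, a log2 change of 1.42 (SE 0.257, edgeR adjusted p 0.0165). The call ended when either homo library or both shallow libraries were left out, with at least 500 genes per barcode and by DESeq2 (adjusted p from 0.0844 to 0.217). Ube2c, a ubiquitin-conjugating enzyme of mitosis, was at 0 and 10.1 CPM (WT), 8.22, 5.45 and 16.6 CPM (het), and 28.7 and 35.7 CPM (homo). WT and het overlapped, and WT replicate 1 held no UMI. The log2 change of 2.28 (SE 0.477, edgeR adjusted p 0.0380) rested on between 0 and 12 cells with a UMI per library. It was 8.87 without WT replicate 2, a fitted value against no WT UMI that depends on the prior count, and 1.75 without WT replicate 1. The call was lost without homo replicate 1, homo replicate 2 or het replicate 2, with the depth covariate, in cells with a TRB contig or exactly 1 of them, without the shallow libraries and by DESeq2.

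The 4 lower genes lay in the order WT, het, homo without overlap between the libraries of the genotypes. Having the libraries of WT and homo apart was a condition for naming a gene. The share of all genes tested that lay in this order was not counted, so the order is not read as a result. Tmie, known from the mechanotransduction channel of hair cells, stood at 38.2 and 38.0 CPM (WT), 25.7, 22.6 and 12.4 CPM (het), and 9.56 and 11.0 CPM (homo), a log2 change of −1.82 (SE 0.318, edgeR adjusted p 0.0165). Snx9, a sorting nexin of endocytosis, stood at 32.7 and 36.3 CPM (WT), 20.3, 22.2 and 26.9 CPM (het), and 11.5 and 13.6 CPM (homo), a log2 change of −1.41 (SE 0.286, edgeR adjusted p 0.0338). Plekho1, a pleckstrin-homology domain protein, stood at 31.3 and 45.6 CPM (WT), 20.6, 21.4 and 22.8 CPM (het), and 19.1 and 13.6 CPM (homo), a log2 change of −1.36 (SE 0.284, edgeR adjusted p 0.0380). Rasa2, a GTPase-activating protein that limits Ras signalling in T cells, stood at 92.4 and 98.6 CPM (WT), 69.7, 64.1 and 53.8 CPM (het), and 44.0 and 48.4 CPM (homo), a log2 change of −1.01 (SE 0.179, edgeR adjusted p 0.0165). None of the 4 passed the call without the shallow libraries, where their changes were −1.74, −1.32, −1.53 and −0.95 (edgeR adjusted p from 0.0648 to 0.202), and none was called when WT replicate 2, homo replicate 1 or homo replicate 2 was left out, with at least 500 genes per barcode or by DESeq2. In the annotation Tmie overlaps Als2cl, Ube2c overlaps Tnnc2, Drc1 overlaps Gm43755, Ddc overlaps 1700042O10Rik and Rasa2 overlaps Gm19280 and n-R5s87, so reads of these genes may not be told apart, and 7.28% of the words of Ube2c are shared with other genes.

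**Figure D3:**
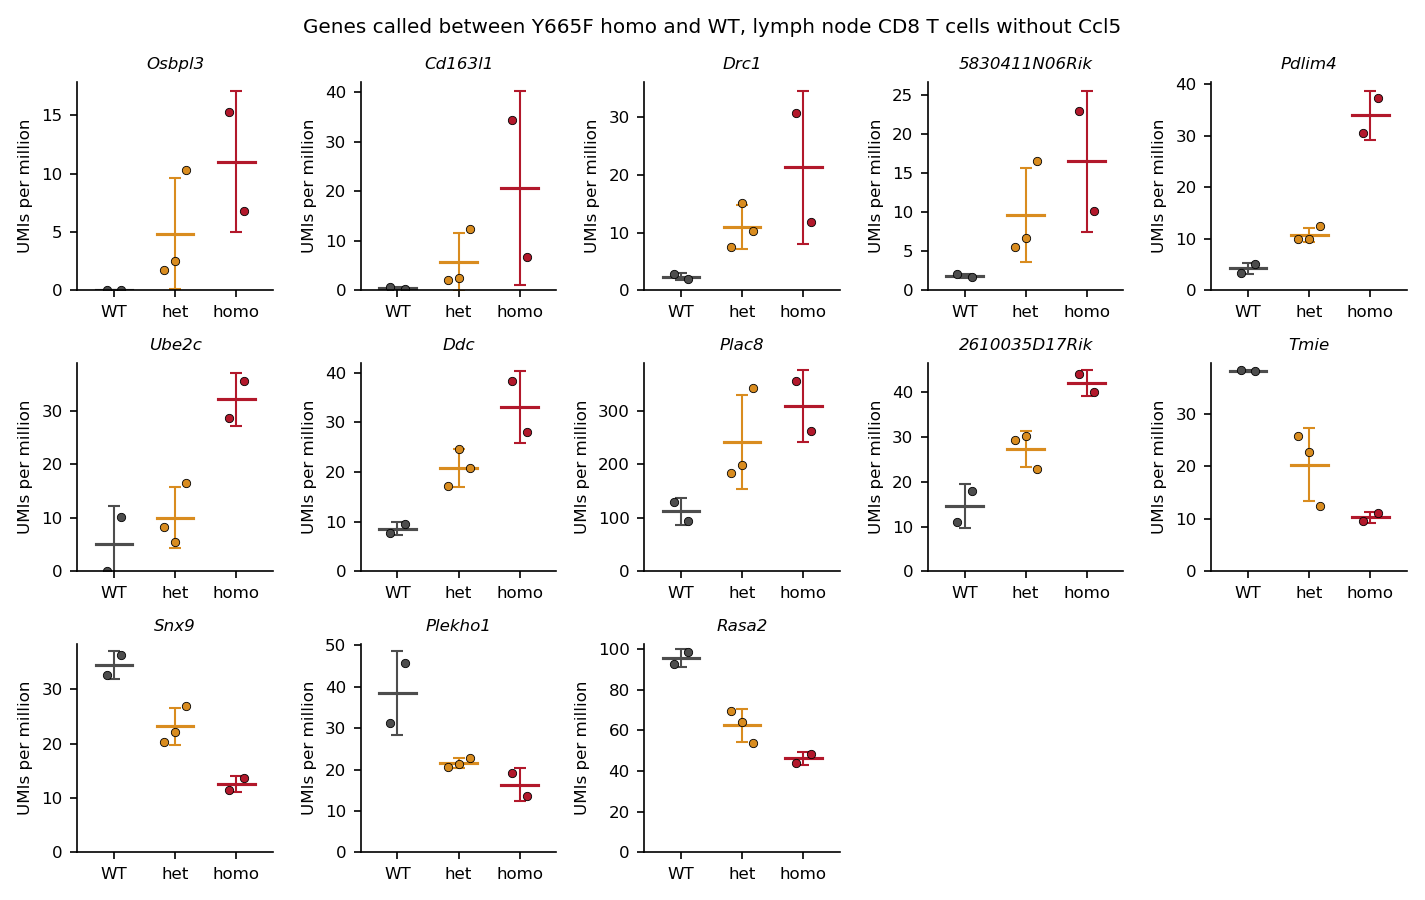
CPM (y axis, linear, from 0) of the 13 genes called between homo and WT in each LN library. Points are libraries, horizontal lines are group means and bars are 1 SD, drawn down to 0 where they reach below it. Het lies between WT and homo by its mean in each of the 13 panels, and Pdlim4 runs from 3.47 CPM in WT to 37.4 CPM in homo. The share of all genes with het in between was not counted.

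Het cells were compared with WT cells to ask what a single edited allele did. None of 8814 genes was called (0%), by edgeR or by DESeq2, and 508 genes by edgeR and 103 by DESeq2 had an unadjusted p under 0.05. Pdlim4 differed by 1.19 (edgeR adjusted p 0.348), Plac8 by 1.07 (edgeR adjusted p 0.123), Ddc by 1.21 (edgeR adjusted p 0.124) and Plekho1 by −0.89 (edgeR adjusted p 0.124). The comparison shares its WT libraries with that of homo, so the order of the values is not independent evidence. Between homo and het, the changes of the other 12 genes did not pass the test.

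The 9 genes with a smaller change comprised 7 that were higher and 2 that were lower in homo. Without both shallow libraries Smc4 alone of the 9 kept an adjusted p under 0.05 (edgeR, 0.00783), and the others ranged from 0.0648 (Cmtm7) to 0.331 (Ahnak). By DESeq2, Smc4 and Ly6c2 kept it. Over all settings that tested them, the 9 genes missed that threshold in 5 of 19 (Ly6c2) to 13 of 20 (Ccr9). Smc4 missed it in 6 of 20, among them thinned cells, where its change was 0.29 (edgeR adjusted p 0.818), and the removal of homo replicate 2, where it was 0.57 (edgeR adjusted p 0.359). Ly6c2, a Ly6 family protein high on memory CD8 T cells, stood at 530.2 and 419 CPM (WT), 636, 685 and 716 CPM (het), and 1015 and 695 CPM (homo), a log2 change of 0.85 (SE 0.164, edgeR adjusted p 0.0223). All 5 Y665F libraries lay above WT. In thinned cells a Ly6c2 UMI was held by 13.9% and 10.3% (WT), 17.5%, 20.0% and 18.6% (het), and 24.1% and 17.4% (homo), against 0.167% to 2.25% of B cells. Of its transcript words of 31 bases, 23.7% are shared with other genes, Ly6c1 first, so its counts are uncertain. The same holds for Ms4a4c, with 17.1% shared with Ms4a4b and Ms4a4d. Lgals1 (galectin-1) stood at 84.1 and 79.1 CPM (WT), 93.7, 145 and 116 CPM (het), and 136 and 155 CPM (homo) (0.88, edgeR adjusted p 0.0453). Ahnak, a large scaffold protein, stood at 99.4 and 118 CPM (WT), 153, 154 and 132 CPM (het), and 212 and 159.6 CPM (homo) (0.73, edgeR adjusted p 0.0453). Ccr9, the receptor for the gut and thymus chemokine CCL25, stood lower, at 89.6 and 80.0 CPM (WT), 66.0, 65.4 and 55.9 CPM (het), and 28.7 and 48.4 CPM (homo) (−0.97, edgeR adjusted p 0.0380), with the genotypes apart. The change of Ccr9 was −1.57 without homo replicate 2 and −0.75 without homo replicate 1. Smc4, a condensin subunit (0.79), Trim59 (0.92), Cmtm7 (0.88) and Ms4a4c (0.98) were higher, and the splicing factor gene Luc7l3 (−0.93) was lower, at adjusted p between 0.0165 and 0.0318 by edgeR. The genes Smc4 and Trim59 adjoin on opposite strands, and the strand used in counting is not given in the sources used here. Ccr9 overlaps Lztfl1, Slc6a20a and other genes in the annotation, and Smc4, Cmtm7 and Ms4a4c overlap microRNA or Gm genes. Of the list genes named here, Bcl2, Pim1, Jak3, Ifng, Itgae, Gbp2, Irf7 and Stat5a each overlap another gene too.

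Gene lists were described by their counts, beside a median log2 change over all 8814 genes of 0.0056 and 50.8% of genes above 0. No gene of the 12 pathway and cell state lists passed the full call, so each count below is 0 in both directions, and genes that passed the adjusted p alone (0.25% of all genes, 0.182% higher and 0.0681% lower) are named. Of 20 STAT5 target genes, 17 were tested and none passed, 11 lay above 0 and their median was 0.097. The members with the smallest p were Bcl2, the survival factor, at 0.79 (edgeR adjusted p 0.0595), Pim1, a serine kinase, at 0.77 (edgeR adjusted p 0.137), and Il18r1, a receptor for IL-18, at 0.90 (edgeR adjusted p 0.182). Bcl2 stood at 158 and 175 CPM (WT), 265, 230.0 and 207 CPM (het), and 377 and 221 CPM (homo), with all Y665F libraries above WT. In thinned cells Bcl2 differed by 1.24 and passed the test (edgeR adjusted p 0.0157), while it was 0.43 without homo replicate 1 (adjusted p 0.652), 0.43 without both shallow libraries (adjusted p 0.460) and 0.50 with at least 500 genes per barcode (adjusted p 0.640). In thinned cells a Bcl2 UMI was held by 2.99% and 4.45% (WT), 10.2%, 7.80% and 5.61% (het), and 10.0% and 7.89% (homo), against at most 4.5% of B cells.

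Of 24 memory and effector genes, 15 were tested, 11 lay above 0 and the median was 0.48. Ly6c2 and Lgals1 passed the adjusted p, and Cxcr3, the receptor that takes effector cells to inflamed tissue, lay at 0.99 (edgeR adjusted p 0.0595). Of 18 cytotoxic genes, 10 were tested and none passed. Of these 10, Gzmb, Gzmm, Ifng and Ccl4 reached the filter on low counts in no WT library and entered the test only through Y665F libraries. The 6 others had a median of 0.17, with 5 above 0, against 0.70 over the 10, which is no support for a direction. Gzmb, which encodes granzyme B, held 6 UMIs in WT and 24 in homo, a ratio of 11.7 with an exact 95% counting interval of 4.67 to 35.1 (edgeR adjusted p 0.0595). The homo UMIs came from 3 cells in each library, 18 of them from 3 cells of homo replicate 2, and the WT UMIs from 2 cells in each, so the UMIs are not independent and the interval is too narrow. Het replicate 3 had the highest Gzmb level (18.6 CPM). Ifng was at 2.31 (edgeR adjusted p 0.152) and Cst7, a protease inhibitor of cytotoxic granules, at 0.54 (edgeR adjusted p 0.218). All 17 naive genes were tested, 11 lay above 0 and the median was 0.12, with Igfbp4 at 0.71 (edgeR adjusted p 0.134), Klf2, a factor of recirculation, at 0.56 (edgeR adjusted p 0.182) and Dapl1 at 0.60 (edgeR adjusted p 0.287). The naive and the memory lists thus both had medians above that of all genes.

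Of 8 receptor genes of the common gamma chain family, 7 were tested and none passed, with Il7r at −0.56 (edgeR adjusted p 0.335), Il21r at 0.34 (edgeR adjusted p 0.435) and Il2rb at 0.32 (edgeR adjusted p 0.540). All 15 JAK-STAT genes were tested and none passed. Of them 4 lay above 0 and the median was −0.24, with Jak3, the kinase bound to the common gamma chain, at −0.56 (edgeR adjusted p 0.403). Of 24 homing genes, 19 were tested and Ccr9 alone passed the adjusted p, with Itgae at −0.74 (edgeR adjusted p 0.175) and Cxcr3 as above. Of 31 interferon-induced genes, 30 were tested and none passed, with Gbp2 at −0.73 (edgeR adjusted p 0.144), Ifi27l2a at 0.76 (edgeR adjusted p 0.191) and Irf7 at 0.57 (edgeR adjusted p 0.191), so the members with the smallest p differed in sign. Of 27 genes of TCR signalling and activation 24 were tested (median −0.028), of 14 survival genes 11 (0.36), of 18 cell cycle genes 16 (0.33) and of 10 heat shock genes 8 (−0.30). None of them passed the test, and all 8 heat shock genes tested lay below 0. Pmaip1 (survival), Ccna2 (cell cycle), Cxcr5 (homing) and Rsad2, Oas1a and Ly6c1 (interferon-induced) reached the filter on low counts in no WT library. Without Pmaip1 the survival median was 0.329, and without Ccna2 the cell cycle median was 0.326. Of the STAT5 targets 1 gene, and of TCR signalling 2 genes, reached the filter in no homo library.

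**Figure D4:**
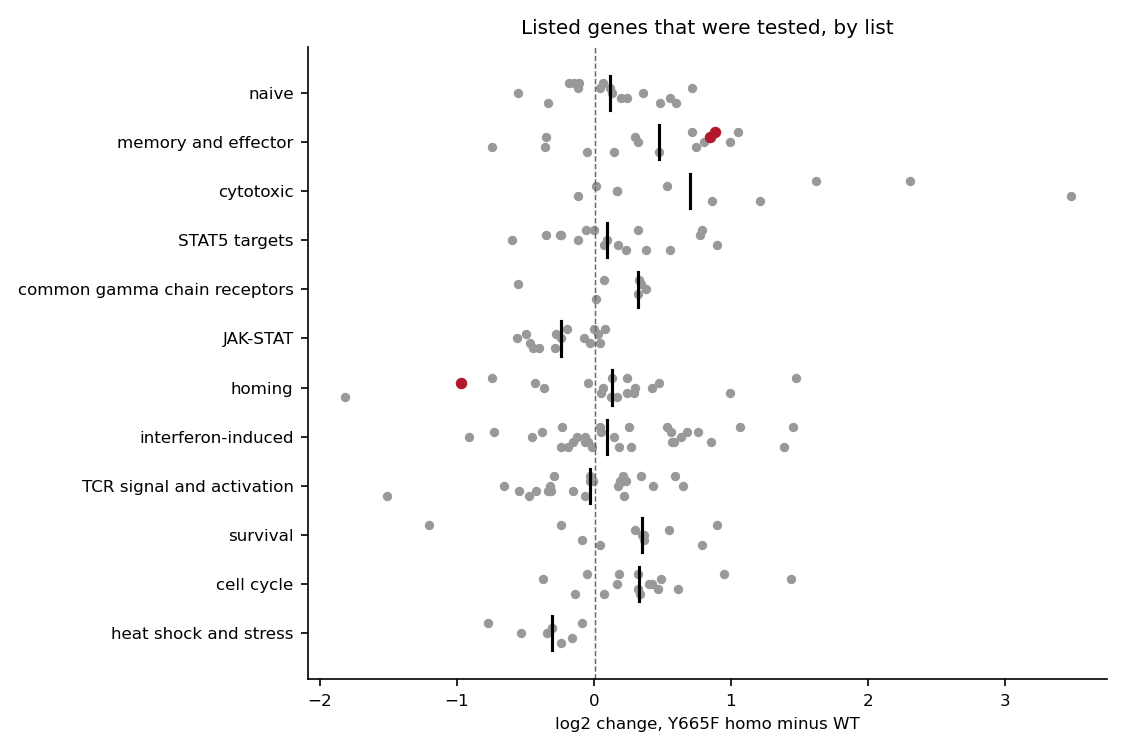
Log2 change of homo minus WT (x axis) for the tested genes of 12 lists (rows). Grey points are genes, red points passed an adjusted p under 0.05, black bars are list medians and the dashed line is the median of all genes. The cytotoxic median lies at 0.70 over 10 genes and at 0.17 over the 6 that a WT library carried past the filter, and the heat shock median at −0.30, and 3 list genes are red (Ly6c2, Lgals1 and Ccr9).

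The change in Ccl5-negative cells was set against that in the 3271 CD8 T cells with Ccl5 of the same libraries, to ask whether the genotype acted differently on the 2 gates. Of these cells, 92 and 174 came from WT, 698, 442 and 389 from het, and 649 and 827 from homo. With so few WT cells, a gene that was not called is not read as an equal change. The difference of changes was called for 1 of 8852 genes (0.0113%), Cd163l1, whose change was larger without Ccl5 by 3.79 (SE 0.801, edgeR adjusted p 0.0306). With Ccl5 its level was 49.9 and 57.0 CPM (WT), 68.9, 73.5 and 87.8 CPM (het), and 136 and 117 CPM (homo), so WT cells with Ccl5 held more Cd163l1 RNA than homo cells without it. The call ended by DESeq2, with at least 500 genes per barcode, in thinned cells and when WT replicate 1, WT replicate 2, het replicate 1 or homo replicate 1 was left out. Without the memory transcripts in the Ccl5-negative cells the difference of Cd163l1 turned to −1.19 (edgeR adjusted p 1). In thinned cells 34 genes were called, and for all of them the change was lower without Ccl5. The thinned CD8 gate held 617 and 1174 WT cells, and 603 and 1147 of them had no Ccl5. Few WT cells with Ccl5 thus lay behind these calls. Plac8 (0.63, edgeR adjusted p 0.710) and Ly6c2 (0.36, edgeR adjusted p 0.467) did not pass. Pdlim4 (3.43, SE 1.68, edgeR adjusted p 0.963) did not pass either, and held 0 to 4 UMIs per library in cells with Ccl5. With Ccl5-positive and Ccl5-negative cells joined, 129 of 9688 genes were called, 12 of them shared with the 13.

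**Figure D5:**
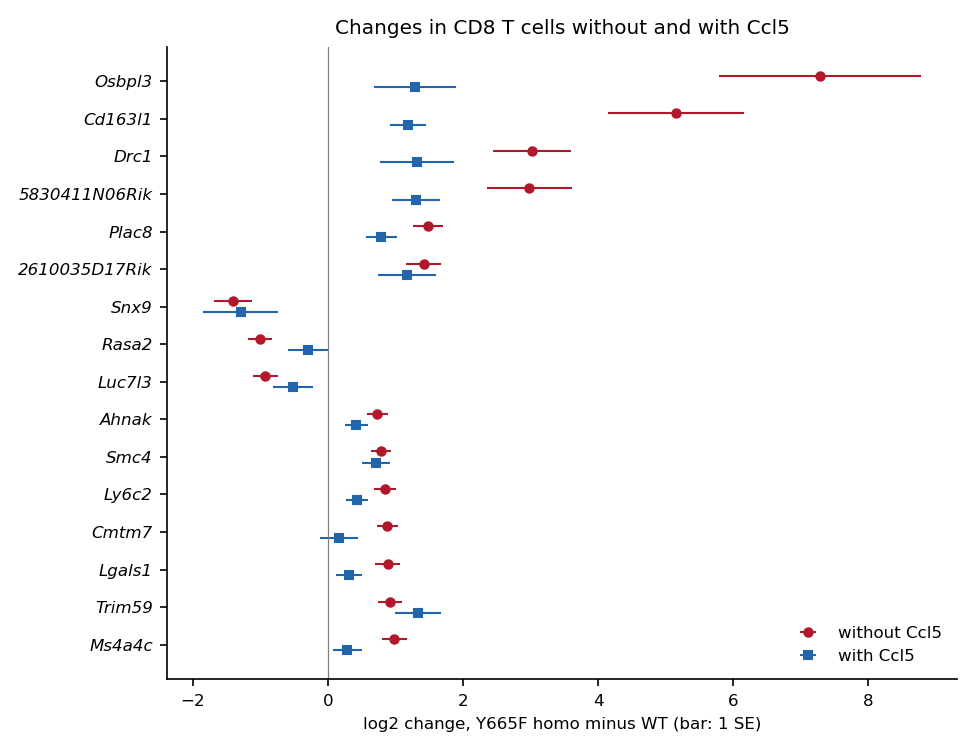
Log2 change of homo minus WT (x axis, bars 1 SE) in CD8 T cells without Ccl5 (red circles) and with Ccl5 (blue squares), for the 16 named genes tested in both. Cd163l1 lies at 5.16 and 1.18, while Snx9 lies at −1.41 and −1.30. The position of Osbpl3 without Ccl5 depends on the prior count.

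T-cell receptor contigs, which the rule did not use, were joined by barcode. Thinned to 751 cells with both chains per library, 0.145% ± 0.0772 of WT cells (SD, n = 2), 2.37% ± 2.77 of het cells (n = 3) and 0.369% ± 0.232 of homo cells (n = 2) shared their clonotype with another cell (exact two-sided permutation test of the genotype order, p = 0.648, where the smallest p possible is 0.00952). Het replicate 2 held 50 such cells before thinning and the other libraries 0 to 14, with no clonotype above 3 cells. Of 20 TRBV segments tested, none was called between homo and WT by edgeR or DESeq2, none had an unadjusted p under 0.05, and the smallest edgeR adjusted p was 0.864. The segment TRBV12-1 made up 7.65% to 10.8% of cells in every library.

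The same rule gave 2338 cells in the spleen, where each genotype has 1 library, so ratios have no replicate check, and zygosity is not labelled. A legend of the study speaks of 1 sample per group combined from 3 mice, and names both organs. Of the organs in the series only the spleen has 1 library per group, while pooling of the LN libraries is not stated. There 23.4% of the CD8 gate held no Ccl5 in Y665F, against 62.3% in WT and 67.3% in Y665H. Between 13.5% and 18.6% of spleen B cells held a Ccl5 UMI. All 7 higher genes with over 3 UMIs in both libraries lay above WT in Y665F (31.9% of all 8757 genes did), and all 4 lower genes lay below, as did 68.1% of all genes. The counting interval lay above 0 for 5 of the 7, and held 0 for Osbpl3, at 1.14 (exact 95% interval −0.24 to 2.53), and 2610035D17Rik, at 0.29 (exact 95% interval −0.29 to 0.85). Cd163l1 had 1 UMI in WT and 7 in Y665F, and 5830411N06Rik 2 and 31, so no ratio was formed. The log2 ratio of Y665F over WT was 5.41 (exact 95% interval 4.33 to 6.75) for Drc1, 2.30 (exact 95% interval 1.67 to 2.97) for Ddc, 1.60 (exact 95% interval 1.11 to 2.10) for Pdlim4 and 1.30 (exact 95% interval 1.18 to 1.42) for Plac8. Tmie gave −1.58 (exact 95% interval −2.16 to −1.04) and Ccr9 −1.07 (exact 95% interval −1.28 to −0.87). For Y665H over WT, 6 of the 7 higher genes lay above 0 (52.5% of all genes did) and so did all 4 lower genes. The counting interval lay above 0 for 2 of the 7 and below 0 for 1, and it held 0 for all 4 lower genes. Plac8 gave 0.59 (exact 95% interval 0.47 to 0.71), Ube2c 1.44 (exact 95% interval 0.82 to 2.09), Pdlim4 −0.67 (exact 95% interval −1.34 to −0.027), Drc1 0.18 (exact 95% interval −1.56 to 1.92) and Tmie 0.24 (exact 95% interval −0.047 to 0.53). The intervals cover counting error only. S100a8, a neutrophil gene, reached 148 CPM (WT), 3411 CPM (Y665H) and 3974 CPM (Y665F) in these spleen cells, and its part in the ratios was not tested.

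The promoter windows of RefSeq (GRCm38.p6, 250 bases before to 50 after the start) were searched for TTCNNNGAA, the core of the sites that STAT5 binds, which reads the same on both strands. All 9 higher genes matched a window and none held it, and of the 4 lower genes 3 matched and none held it. Of all 27025 genes with a window, 9.55% held it in at least 1 (8.30% of 32851 windows). No window is printed, and the letters say nothing of binding elsewhere.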

How the data were processed

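Lymph node (7) and spleen (3) libraries were used, while of 6 bone marrow libraries only the barcodes were counted. The deposited matrices hold raw UMI counts per gene and barcode, made by the authors in Cell Ranger (5.0.0 for LN and 6.0.0 for spleen per the file headers, 5.0 with Seurat 4.0 and mm10 per the submitters' processing notes, and GRCm38 per the methods). The labels name a kit for the 3′ end and the methods one for the 5′ end, so LN and spleen levels were not compared. The deposited TCR tables list contigs with their UMI counts.

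Counts of the selected cells were summed per library. Of 32285 genes, 32158 matched GENCODE vM21 by identifier. All 3 genotypes entered 1 edgeR quasi-likelihood model (edgeR 4.0.16, R 4.3.3, TMM, filterByExpr, Benjamini-Hochberg adjustment over all genes, 4 residual degrees of freedom), and DESeq2 1.42.0 was an alternative. SE is the log2 change divided by the square root of F. The difference between gates was tested in a model with the library as a block. Clonotypes needed both chains, and TRBV segments at least 70 cells. Doublets were not called. Cells with exactly 1 TRB contig served as a check added after seeing the data, as did leaving out both shallow libraries and joining the gates. Intervals are exact at 95% and cover counting error only.

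Named genes were the called genes with the largest changes whose libraries did not overlap (up to 14 higher and 8 lower). Receptor, mitochondrial, ribosomal and sex-linked genes and those of the rule were left out there. Called list genes, Stat5a, Stat5b, Cd8a, Cd8b1 and Ccl5 were added, and of each list the members with the smallest p (2 to 4 planned). The 5 largest each way in the other 2 contrasts were planned but not drawn. The genes that passed the adjusted p alone were named after their values were seen. The cells, lists and markers were chosen with earlier results of these data known. On simulated counts for 8627 genes, the model recovered 48 of 50 genes raised 4-fold, 32 of 50 raised 2-fold, 44 of 50 at 0.25-fold and 17 of 50 at 0.5-fold, with 5 false calls. The 2-fold and 0.5-fold genes lay exactly at the threshold on the log2 change, so many would miss it at any depth. The simulated spread followed the trend with expression level, not that of each gene. Recovery of genes with UMIs in few cells was not tested.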

Additional observations from a re-analysis of the deposited data

Results flagged for a closer look

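The change of Cd163l1 between homo and WT differed between CD8 T cells without and with Ccl5 by 3.79 on the log2 scale (SE 0.801, edgeR adjusted p 0.0306), which was a difference of effects between 2 groups of cells of the same libraries. Without Ccl5 the gene held 1 UMI in each WT library, so the difference rests on 2 WT UMIs. Homo replicate 1, a shallow library, gave 18 of the 26 homo UMIs. The call was lost by DESeq2 (4.12), with at least 500 genes per barcode (3.27), in thinned cells (1.96), without the memory transcripts, where the difference turned to −1.19, and without WT replicate 1, WT replicate 2, het replicate 1 or homo replicate 1.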

How the results depend on the processing

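The count of 13 genes called between homo and WT was 4 by DESeq2, 42 with no low-count filter, 22 by adjusted p alone, 5 with at least 500 genes per barcode, 4 in thinned cells, 4 without the 8 memory transcripts, 21 in cells with a TRB contig, 4 without both shallow libraries and 129 with the gates joined. Leaving out 1 library gave 4 (without WT replicate 2) to 29 (without WT replicate 1), with 7 without het replicate 2, 20 without het replicate 3 and 5 without homo replicate 1. The count of 0 between het and WT was 13 with no filter, 2 with 500 genes, with the depth covariate, without the memory transcripts, with a TRB contig and with exactly 1 TRB contig, 1 in thinned cells and without the shallow libraries, 43 with the gates joined, and 0 to 5 with 1 library left out. The count of 1 between homo and het was 0 by DESeq2, with 500 genes, in thinned cells, with the covariate, without the memory transcripts and without the shallow libraries, 3 with no filter, 2 with exactly 1 TRB contig, and 0 to 2 with 1 library left out. The count of 1 for the difference between gates was 0 by DESeq2 and with 500 genes, 2 by adjusted p alone and without the memory transcripts, 34 in thinned cells (all lower), and 0 to 4 with 1 library left out. In thinned cells few WT cells with Ccl5 were left. The 9 higher and 4 lower genes kept their sign in every setting that tested them. They were picked from these data as called genes with homo and WT libraries apart, so a kept sign was largely set in advance. Of the higher genes, 5 passed the filter on low counts only through Y665F libraries. The kept sign is thus no support for a direction. Pdlim4 stayed called in all 19 settings that tested it, and was not tested in thinned cells. In the main fit it reached the filter on low counts in no WT library, so these calls are no support for a direction.

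No pairing of libraries by replicate number was seen (correlations of same-numbered deviations from −0.095 to 0.069). The deviations were taken from group means, so those of the WT libraries mirror each other, as do those of homo. The correlations are thus not independent, and the check cannot show that the libraries were unpaired. With the replicate block, 25, 5 and 1 genes were called in homo against WT, het against WT and homo against het, and no TRBV segment was. No TRBV segment was called in any setting.

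The difference in expanded clonotypes turned to −0.123 percentage points with the TRB chain alone. The share without Ccl5 differed by −28.4 percentage points (homo minus WT) in thinned cells and −44.9 with 500 genes, against −35.8. Stat5a turned to −0.012 with no filter, −0.091 with 500 genes, −0.016 without the shallow libraries, −0.14 with exactly 1 TRB contig, and lay between −0.12 and 0.33 with 1 library left out (−0.12 without WT replicate 1, −0.013 without homo replicate 1). With 1 library left out Stat5b lay between −0.16 and 0.045 (without homo replicate 2), and over all settings its lowest value was −0.32 (with the gates joined). Hmgb2 turned to −0.38 without the memory transcripts. The cause was not tested for any of these. The shallow libraries limit precision, with 57 and 65 of their cells above 500 genes.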
